A study of Drosophila melanogaster with 3 samples.

Results

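Of the 20051 regions in a pooled ChIP-seq region list for CG4617, 14493 (72.3%) were left out of the list of peaks kept by the irreproducible discovery rate (IDR) procedure, and these weak regions are described here. A pooled region was taken as weak when its interval and signal had no match among the 5558 thresholded peaks. The weak regions were therefore chosen by signal: the thresholded peaks hold pooled ranks 1 to 5558 and the weak regions hold ranks 5559 to 20051. The rule compares signals as well as intervals, so 7 weak regions carry the interval of a thresholded peak with another signal.

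The study immunoprecipitated chromatin with an antibody against GFP from whole embryos of both sexes, 0 to 24 h old, of a transgenic Drosophila melanogaster line that stably expresses CG4617 with GFP at its C terminus. Chromatin was sonicated to 200 to 800 bp. All 3 biological replicates, with 1 technical replicate each, form 1 group, CG4617-eGFP anti-GFP ChIP, and carry the same transgene. There is no control group here, and nothing was compared between conditions. Embryos of all these ages were taken whole, and a region bound in few cells cannot be told apart from a region bound weakly in many. The labels do not say which promoter drives the fusion or whether the native protein remains. Signals are printed as the authors deposited them, and no source gives their scale. Read depth per library is unknown.

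IDR takes deliberately long lists, in which true binding is mixed with background, and keeps the regions whose ranks repeat between replicates. Here the kept peaks are the first 5558 pooled ranks, so a region below the threshold is a candidate with a lower pooled signal. It may be a weak site, the flank of a strong one or background. Fly promoters of widely expressed genes often carry the DNA replication-related element (DRE), bound by DREF, or Ohler motif 1, bound by M1BP, and are often arranged as divergent pairs. Promoters of developmental genes more often carry a TATA box or GAGA repeats, which are bound by the GAGA factor Trl.

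The sequences of 7 weak regions are examples, from promoters next to the threshold down to the last entry of the list. Each is the 81 bp around the deposited summit, from the RefSeq copy of Release 6 (dm6), plus strand, with the DRE core (TATCGATA) and the Ohler motif 1 core (GGTCACAC) in capitals on either strand. The first 4 lie at promoters of genes that have no thresholded promoter peak. They were picked as the strongest such regions that hold a DRE core or a motif 1 core, so they are not typical. Within 100 bp of the summit, the DRE core was in 4.28% of all weak promoter regions and the motif 1 core in 3.95%. The other 3 are the strongest intronic region, the strongest region between genes and the weakest region of all, none of which holds either core in this window.
CG7101 promoter, chrX:18830561-18830641, signal 128.3: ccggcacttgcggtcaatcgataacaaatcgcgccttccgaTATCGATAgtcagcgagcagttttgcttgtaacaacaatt
Wdr33 promoter, chr3R:5660636-5660716, signal 127.5: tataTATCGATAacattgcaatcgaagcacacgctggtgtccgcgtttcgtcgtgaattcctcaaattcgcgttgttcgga
Parg and Mnt promoter, chrX:3671456-3671536, signal 128.4: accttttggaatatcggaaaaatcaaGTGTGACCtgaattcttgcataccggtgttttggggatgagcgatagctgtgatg
Tmf and CG14435 promoter, chrX:6844295-6844375, signal 124.8: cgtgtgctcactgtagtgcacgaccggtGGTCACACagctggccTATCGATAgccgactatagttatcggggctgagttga
pyd intron, chr3R:8896845-8896925, signal 128.7: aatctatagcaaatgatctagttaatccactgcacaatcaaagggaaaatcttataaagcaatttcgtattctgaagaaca
intergenic, nearest TSS CG15629, chr2L:4810102-4810182, signal 128.7: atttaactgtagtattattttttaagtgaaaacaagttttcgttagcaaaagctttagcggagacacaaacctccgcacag
intergenic, nearest TSS Cpr76Ba, chr3L:19516875-19516955, signal 42.2: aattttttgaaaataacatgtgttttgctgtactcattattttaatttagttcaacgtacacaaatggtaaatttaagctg

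Weak signals ran from 128.7 down to 42.2 with a median of 57.1, against a median of 219 and a lowest value of 128.8 among thresholded peaks. There was no gap at the threshold. The 3 weak regions just under it lay in an intron of pyd (128.72), which encodes a junction scaffold protein, in an intron of the cell cycle factor E2f1 (128.71) and at the promoter of Gnf1 (128.69), a replication factor C subunit. Thresholded peaks just above it lay at the promoters of YL-1 and Tmem214 (128.79) and of inc and CG14795 (128.76). The weakest entries were a region nearest CG31337, one in a coding exon of Ufsp2 and one nearest the cuticle gene Cpr76Ba, all at 42.23. In the column that the file format reserves for q values, the median q was 0.531 for weak regions, and 2457 of them (17.0%) had a q at or under 0.05. The highest q was 0.960 among weak regions and 0.00117 among thresholded peaks. Nearly all weak regions (99.7%) were 440 bp wide, and all of them lay on the 6 arms 2L, 2R, 3L, 3R, 4 and X.

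Weak regions were mostly outside promoters, and their promoter share declined steeply with signal. A promoter region here has its summit within 500 bp of an annotated protein-coding transcription start site (TSS). Of the weak summits, 4553 (31.4%, Wilson 95% interval 30.7 to 32.2) were at promoters, against 81.5% of thresholded summits and 11.5% of the bases of the arms. Introns held 5799 weak summits (40.0%, with 39.9% of arm bases), the space between genes held 2674 (18.5%, with 27.8% of bases), and exons held 1467 (10.1%, with 20.8% of bases). Per 100 kb of each kind of sequence there were 29.7 weak summits at promoters, 10.9 in introns, 7.17 between genes and 5.26 in exons. Intervals on shares cover counting error only, and neighbouring regions are not independent. Signal chose the members, so the difference from thresholded peaks is a description.

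Across 5 bins of equal size in falling signal, the promoter share was 57.1% in bin 1, 38.3% in bin 2, 24.8% in bin 3, 19.8% in bin 4 and 17.0% in bin 5. The drop between bin 1 and bin 5 was 40.1 percentage points (Newcombe 95% interval 37.9 to 42.4). The bins cover signals of 128.7 to 83.8, 83.8 to 62.8, 62.8 to 52.7, 52.7 to 46.4 and 46.4 to 42.2. Even the weakest bin thus stayed above the promoter share of arm bases. The median distance to the nearest TSS was 298, 1074, 1849, 2329 and 2569 bp in bins 1 to 5, against 101 bp for thresholded peaks.

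**Figure D1:**
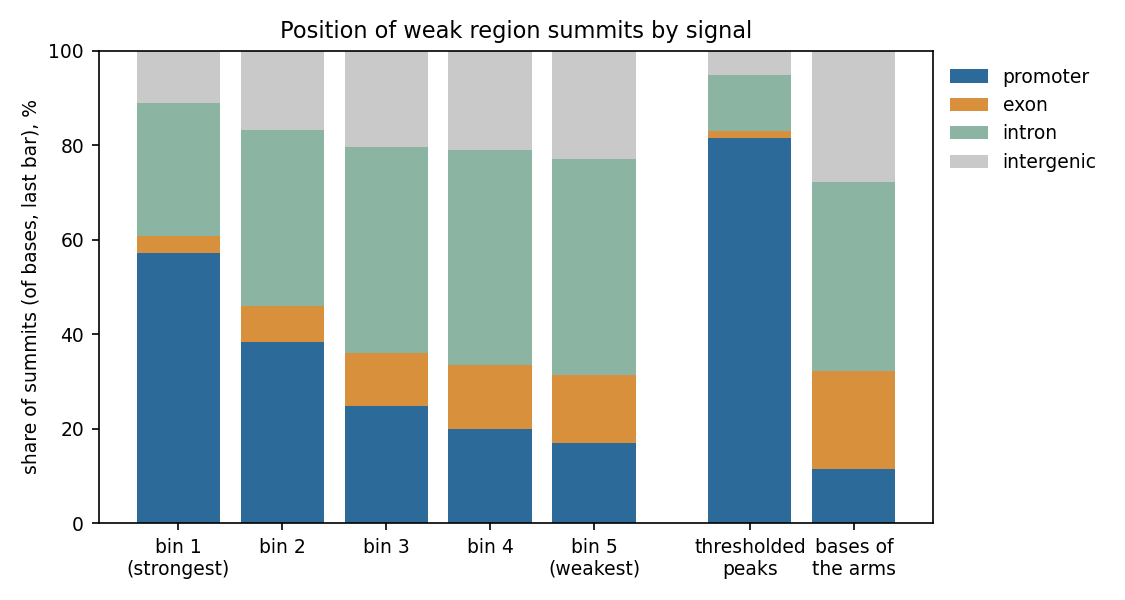
Share of summits (in percent) at promoters, in exons, in introns and between genes for the 5 signal bins of weak regions, the thresholded peaks and, in the last bar, the bases of the 6 arms. The promoter part shrinks to 17.0% in bin 5, where introns hold 45.5%, and thresholded peaks stand apart with 81.5% at promoters.

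The other classes filled the gap unevenly. Introns took 28.1% of bin 1 and 45.5% of bin 5, and the space between genes took 11.1% and 23.0%. Coding exons changed most in proportion: they held 9 of 2899 summits in bin 1 (0.310%), 47 in bin 2 (1.62%), 115 in bin 3 (3.97%), 157 in bin 4 (5.42%) and 170 in bin 5 (5.87%), against 7 of 5558 thresholded summits (0.126%). Summits in untranslated exon parts made up 1.55% of bin 1 and 6.90% of bin 5, and summits in exons of non-coding genes 1.79% and 1.69%. Annotated transposable elements cover 5.93% of the arms and held 128 weak summits (0.883%) and 4 thresholded summits.

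The decline was gradual within every list. In steps of 1000 ranks, the promoter share of the pooled list was 67.6% at ranks 5001 to 6000, where the threshold falls, 38.7% at ranks 9001 to 10000 and 15.9% at ranks 19001 to 20000. Each replicate list was then split at rank 5558 by its own signal. Below that rank, the promoter share was 28.6% for replicate 1, 31.8% for replicate 2 and 25.9% for replicate 3, and in the top 5558 it was 86.7%, 80.8% and 69.4%. The share was lower below the rank than above it in 3 of 3 lists, by a mean of 50.2 ± 7.39 percentage points (mean difference -50.2, SD, n = 3). The exact two-sided sign-flip permutation test gave p = 0.25, the smallest value that 3 lists allow, so a p of 0.05 cannot be reached.

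**Figure D2:**
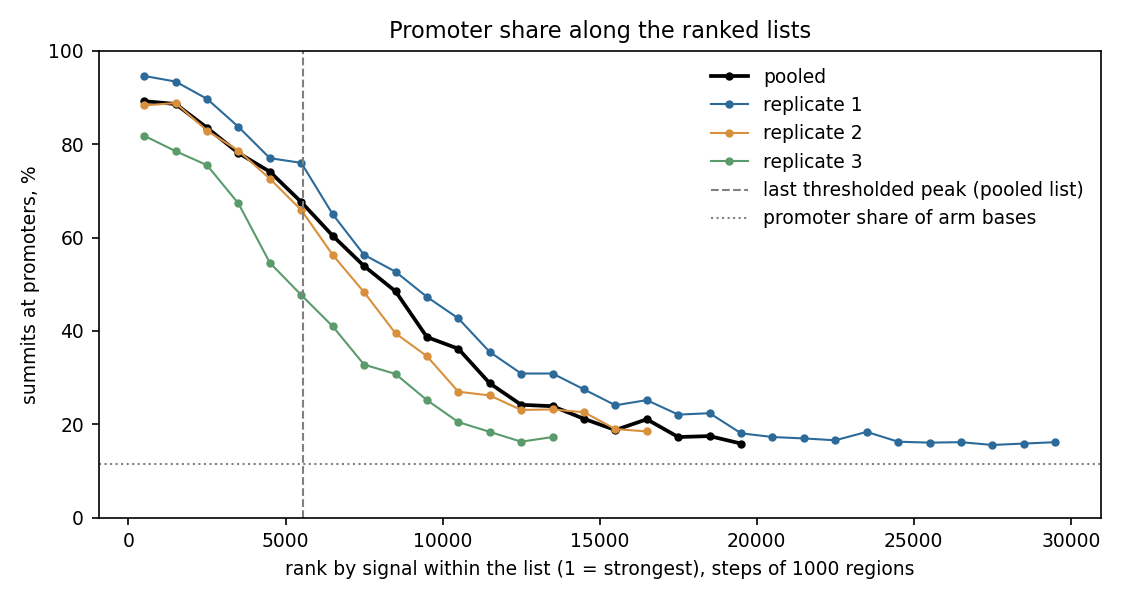
Percent of summits at promoters in steps of 1000 regions, by rank on signal within the pooled list and within each replicate list; the dashed line marks the last thresholded peak at pooled rank 5558 and the dotted line the promoter share of arm bases, 11.5%. All 4 curves fall through the threshold without a step, and replicate 3 lies below the others over its top ranks.

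Many weak promoter regions were neighbours of a thresholded peak. In all, 1564 weak regions (10.8%) shared at least 1 bp with a thresholded peak, in 23.1% of bin 1 and 3.62% of bin 5. The overlap was concentrated at promoters: 1405 of 4553 weak promoter regions (30.9%) touched a thresholded peak, against 99 intronic (1.71%), 41 intergenic (1.53%) and 19 exonic regions (1.30%). The weak promoter regions split into 2518 (55.3%) near genes without a thresholded promoter peak, 1942 (42.7%) near genes with one and 93 near both kinds. Of the 1942, 70.4% touched a thresholded peak, and of the 2518, 0.278% did. With all touching regions left out, the promoter share was 46.2%, 29.0%, 20.3%, 16.1% and 14.7% in bins 1 to 5. CG4617 itself is an example of the second kind: its promoter, shared with CG8300, held a thresholded peak of signal 289.0 with its summit 21 bp from the CG4617 TSS and a weak region of signal 102.9 beside it.

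Support in the replicate lists also fell with pooled signal. Because the pooled list was made from the same 3 libraries, this support is a second look at the same reads and not an independent one. A weak summit was counted as supported when it lay inside a region of a replicate list, and the lists hold 30000, 17251 and 14368 regions in replicates 1, 2 and 3. In this sense 2966 weak summits (20.5%) were in all 3 lists, 5506 in 2, 4992 in 1 and 1029 (7.10%) in none, against 87.5% of thresholded summits in all 3. The share in all 3 was 59.7% in bin 1, 29.6% in bin 2, 7.66% in bin 3, 3.48% in bin 4 and 1.79% in bin 5. Replicate 1 listed 71.7% of the weak summits, replicate 2 listed 59.4% and replicate 3 listed 40.7%, an order that follows the lengths of the lists. Within the top 5558 of each list the shares were close to each other, at 9.72% in replicate 1, 9.60% in replicate 2 and 11.2% in replicate 3.

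Low regions that ranked high in a replicate were often flanks of thresholded peaks. The last region of the pooled list, 1417 bp from the Cpr76Ba TSS, lay inside regions with signals of 71.4, 63.2 and 63.4 in replicates 1, 2 and 3, at ranks 4065, 4254 and 1845. Those regions had their own summits 199, 109 and 184 bp away, and a thresholded peak of signal 182 had its summit 200 bp away. In bin 5, 56 summits were inside a top 5558 region of replicate 1, 46 of replicate 2 and 53 of replicate 3, and 45, 44 and 28 of these regions touched a thresholded peak. In bin 1 the numbers were 811, 836 and 979, of which 436, 453 and 275 touched one. Support by summit thus includes neighbours of strong peaks.

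Replicate 3 departed from the other replicates at promoters. In bin 1, the promoter summits were listed at 95.4% by replicate 1, 91.5% by replicate 2 and 56.9% by replicate 3, while the summits outside promoters were listed at 96.1%, 93.2% and 83.1%. Taken as promoter minus other summits, replicate 3 gave -26.2 percentage points, against -0.708 for replicate 1 and -1.70 for replicate 2. This was not particular to weak regions. Among thresholded peaks, replicate 3 listed 88.9% of those at promoters and 97.4% of the others. The values were 97.6% and 98.9% for replicate 1, and 98.6% and 99.2% for replicate 2. Depth is unknown, and its part in this was not tested. Bin 1 regions in all 3 lists were at promoters in 46.7% of cases, and those in 2 lists in 72.3%. In bins 2 to 5 replicate 3 gave -13.7, -4.38, -1.03 and 1.61 points. The mean of the 3 lists was -9.52, -2.02, 5.19, 10.4 and 11.3 points in bins 1 to 5, so its sign differed between bins. Over all bins together, which differ in signal and in promoter share, promoter summits were listed more often than the others by 21.4 points for replicate 1 (86.4% and 65.0%), 18.3 for replicate 2 (72.0% and 53.7%) and 2.15 for replicate 3 (42.1% and 40.0%). The mean of 13.9 ± 10.3 points (SD, n = 3) gave p = 0.25 in the exact two-sided sign-flip permutation test, again the smallest possible value. The same 3 libraries made the pooled signal that chose the regions, so this test cannot measure promoter support apart from that choice. Without regions touching a thresholded peak, the difference in replicate 3 was -1.55 points.

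**Figure D3:**
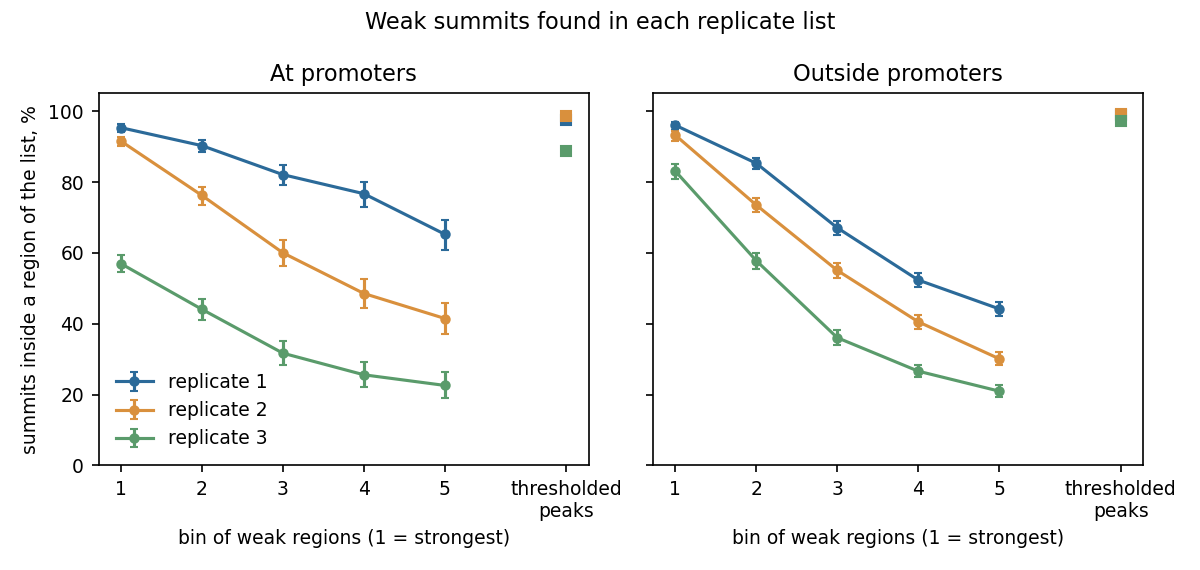
Percent of weak summits inside a region of each replicate list, by signal bin, at promoters and outside them, with thresholded peaks as squares; bars are Wilson 95% intervals. In bin 1 replicate 3 lists 56.9% of promoter summits and 83.1% of the others, while replicates 1 and 2 list over 91% of both.

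The bin pattern changed among regions with full support. Of weak regions in all 3 lists, the promoter share was 46.7% of 1732 in bin 1, 35.9% of 859 in bin 2, 41.4% of 222 in bin 3, 56.4% of 101 in bin 4 and 57.7% of 52 in bin 5. These regions showed no steady decline, with -11.0 points for bin 1 minus bin 5 and a wide interval in bin 5 (44.2 to 70.1). Of the 52 in bin 5, 44.2% touched a thresholded peak, against 20.2% of the 1732 in bin 1. Regions in no list were at promoters in 10.9% of 1029 cases, close to the 11.5% of arm bases.

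The weak list added a promoter region to 2169 protein-coding genes that have none among the thresholded peaks, at 1991 regions. This is 15.5% of the 13968 annotated protein-coding genes and 24.7% of the 8789 without a thresholded promoter peak. For comparison, 9.17% of the arm bases away from thresholded summits lie within 500 bp of a weak summit. Another 2197 genes had a weak region beside a thresholded one, and 7348 genes (52.6%) had either kind. By the bin of their strongest weak region, 916 of the 2169 genes (42.2%) came from bin 1, 472 from bin 2, 302 from bin 3, 244 from bin 4 and 235 from bin 5. For 583 genes (26.9%) that region was in all 3 lists and for 69 in none. A region was shared with another gained gene for 354 of them.

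The gained genes stood between the other groups in promoter arrangement. A divergent TSS, on the other strand within 1000 bp, was annotated for 32.1% of the gained genes, 64.7% of genes with a thresholded promoter peak and 15.1% of genes with neither. By bin the share was 42.5%, 31.4%, 22.8%, 21.7% and 16.2%, so that genes gained from bin 5 were close to genes with no region. Read the other way, 41.0% of the 1699 divergent genes without a thresholded peak were gained, and 20.8% of the 7090 others. Several TSS positions were annotated for 37.8% of gained genes, 35.1% of genes with a thresholded peak and 16.03% of genes with neither, which gives a gene more windows in which a summit can fall. Median gene length was 3.10 kb, 2.78 kb and 1.60 kb in the same order.

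The 20 genes with the strongest weak-only promoter region had signals of 128.7 to 128.0, just under the threshold. The region was listed by replicate 1 for 19 of them, by replicate 2 for all 20 and by replicate 3 for 13. They include InR, the insulin receptor, whose region had ranks 3707, 4004 and 5211 in replicates 1, 2 and 3 and a signal of 128.4 in the pooled list. All 3 ranks were within the top 5558 of their lists. Parg, which removes poly(ADP-ribose) chains, and Mnt, a partner of Max that represses transcription, shared 1 region at ranks 4542, 6329 and 7330. Acf, a subunit of ISWI remodelling complexes, and Mccc1, an enzyme of leucine breakdown, shared another at ranks 4318 and 5522 that replicate 3 did not list. The others were conu, raskol, a Ras GTPase activator, the mitochondrial ribosomal gene mRpS35, wus, qsm, CG15894, CG15172, CG3408, CG1774, CG10435, CG7101, CG7920, CG7739, CG44812 and CG17996. CG7739 was listed by replicate 2 only.

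Most gene lists of general cell functions had a thresholded peak at 66.7% (nucleoporins) to 87.2% (cytoplasmic ribosomal proteins) of their members. Heat shock and chaperone genes had one at 35.7%. As a reference for the counts below, 24.7% of all genes without a thresholded peak were gained. Mitochondrial ribosomal protein genes gained 15 of 73 (20.5%, beside 15.5% of all genes), and only 2 had no region of either kind. The strongest were mRpS35 (128.1), mRpS31 (126.7) and mRpL35 (100.8), and 58 of the 73 genes have a divergent TSS. Cytoplasmic ribosomal protein genes gained 7 of 86 (8.14%, under the 15.5% of all genes), or 7 of the 11 without a thresholded peak. RpS9 (126.1), RpL39 (119.4) and RpL10Ab (111.8) were first, and the germline paralogue RpS5b (47.4) was last and in no replicate list. All 6 of the 18 nucleoporin genes without a thresholded peak were gained (33.3% of the list), 5 of them from bin 1. Nup188 (127.8), Nup154 (127.4) and Nup153 (107.4) were first. All 6 of the 29 Polycomb and Trithorax group genes without a thresholded peak were gained as well (20.7% of the list), led by ph-d (105.4), Psc (99.9) and tna (87.9).

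The other lists of this kind lay on both sides of the 15.5% of all genes. In the order given here, their weak-only shares were 12.5%, 15.2%, 17.0%, 21.7%, 10.5% and 11.1%. Of all genes without a thresholded peak, 24.7% were gained. Proteasome subunit genes gained 4 of 32, or 4 of 5 without a thresholded peak, with Prosalpha4 (104.2), Prosalpha6 (96.9) and Prosbeta2 (83.1) first, and Prosbeta2 shared its region with mRpL39. Aminoacyl-tRNA synthetase genes gained 5 of 33, or 5 of 6, with IleRS-m (119.1), TyrRS (115.4) and ValRS-m (73.7) first, and 4 of the 5 encode mitochondrial enzymes. Translation factor genes gained 9 of 53, or 9 of 15, with eIF2Bbeta (118.2), eIF2Balpha (117.8) and eEF1beta (117.2) first. Rab GTPase genes gained 5 of 23, or 5 of 6, with Rab27 (106.9), Rab23 (85.1) and Rab26 (53.2) first, and none of the 5 was in all 3 lists. Genes of respiratory complexes and ATP synthase gained 8 of 76, or 8 of 22, with ATPsynG (115.9), ND-15 (109.7) and SdhA (89.3) first, and 4 of the 8 are paralogues of cytochrome oxidase subunits (COX4L, COX7AL2, COX6AL2 and COX6CL) with signals of 65.0, 58.8, 54.5 and 43.5. Insulator protein genes gained 2 of 18, or 2 of 5, insv (85.4) and Ibf1 (70.7).

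Lists of developmental and tissue genes had at most 1 member each from bin 1, and their weak-only shares lay on both sides of the 15.5% of all genes. Only members without a thresholded peak can be gained, and 24.7% of all genes without one were. The matching shares were 37.5% for Hox, 11.5% for segmentation, and 22.7% for dorsoventral and mesoderm genes. They were 32.0% for muscle, 16.0% for neuronal and synaptic, and 11.8% for proneural, Notch and E(spl) genes. No Hox gene had a thresholded promoter peak, and 3 of 8 (37.5%) had a weak region, Antp at 90.0 in all 3 lists, Dfd at 60.6 in those of replicates 1 and 3 and Abd-B at 46.8 in that of replicate 2. Segmentation genes gained 3 of 29 (10.3%), wg (51.4), cad (46.1) and inv (45.5), each in 1 list. Dorsoventral and mesoderm genes gained 5 of 26 (19.2%), with ush (89.7), how (76.3) and brk (62.2) first, and none of the 5 was in all 3 lists. Muscle structural genes gained 8 of 29 (27.6%), with the integrin gene if (101.4), Strn-Mlck (71.9) and the myosin heavy chain gene Mhc (68.9) first. Neuronal and synaptic genes gained 4 of 32 (12.5%), with Syn (71.7), Snap25 (69.7) and nrv2 (58.7) first. Proneural, Notch and E(spl) genes gained 2 of 26 (7.69%), E(spl)mbeta-HLH (94.5) and Tom (47.1).

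Cuticle and chemoreceptor genes were mostly without any region. Cuticle protein genes gained 5 of 123 (4.07%), with Cpr65Av (75.8), Lcp65Ag2 (47.5) and Cpr67B (44.8) first, and chemoreceptor genes gained 8 of 179 (4.47%), with Ir21a (60.1), Gr22c (55.0) and Gr39b (51.1) first. Both shares lie below the 15.5% of all genes, and none of the 13 regions was in all 3 lists. Of 28 heat shock and chaperone genes, 10 had a thresholded peak, 14 had neither kind and 4 (14.3%) were gained. These were Hsp22 (123.6), Hsp60A (114.2), Hsp68 (108.2) and Hsc70-3 (94.7), all from bin 1. The 4 are 22.2% of the 18 without a thresholded peak, beside 24.7% of all genes without one. Antimicrobial peptide genes gained 3 of 20 (15.0%), Drsl5 (95.2) and the neighbours Drsl3 and Drsl2, which share a region at 48.6. None of the 20 had a thresholded peak. The share to set beside theirs is thus the 24.7% of all genes without one, and 15.0% lies below it. The 111 replication-dependent histone genes had no region of either kind. They are near-identical repeats, and the labels do not say whether reads that match several copies were kept.

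**Figure D4:**
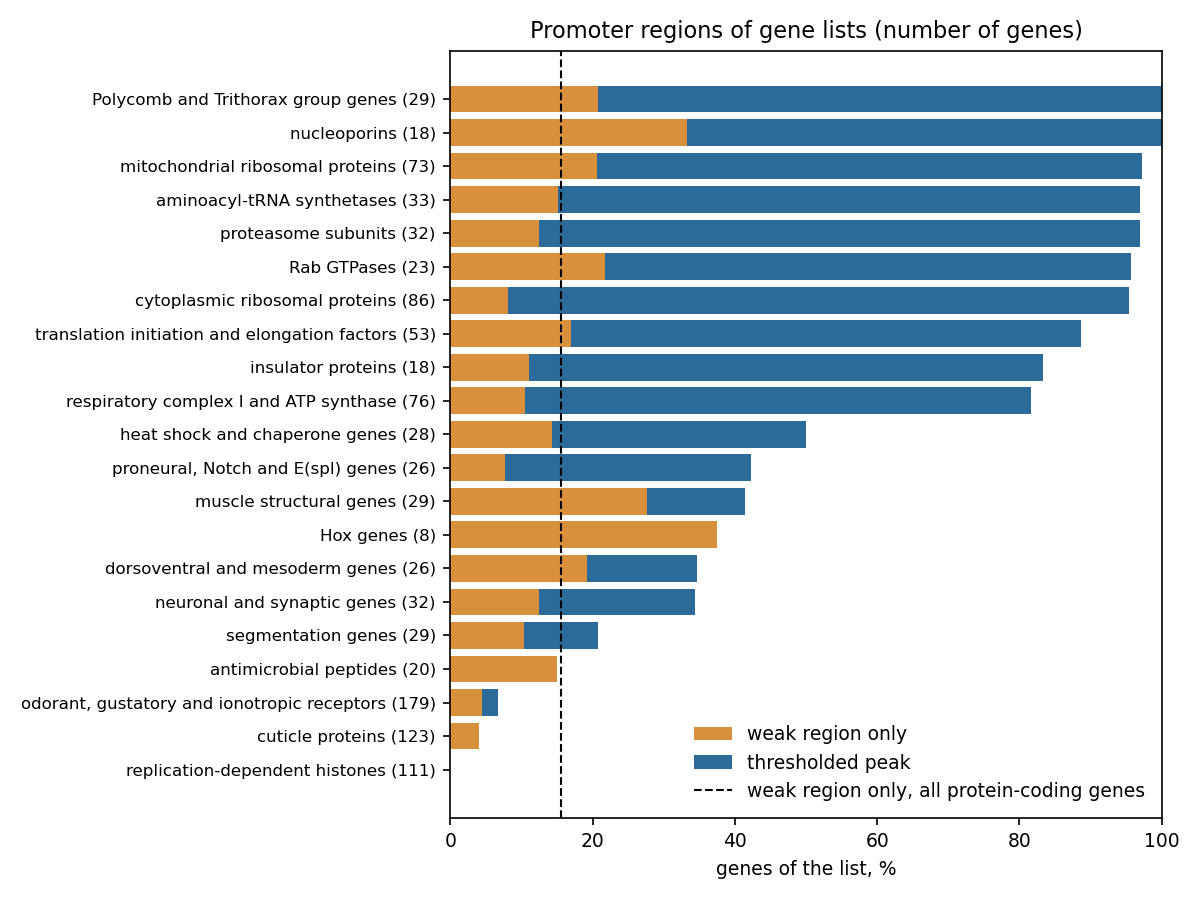
Percent of the genes in each of 21 lists (number of genes in brackets) with a weak promoter region only or with a thresholded promoter peak; the dashed line is the weak-only share of all protein-coding genes, 15.5%. The 10 lists at the top hold a region of either kind in 81.6% to 100% of their genes, and heat shock and chaperone genes in 50%. Of the 8 Hox genes, 3 hold a weak region only.

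Genes of tRNAs, snoRNAs and snRNAs were more often at weak regions alone than at thresholded peaks, in a pooled list with 14493 weak regions and 5558 thresholded peaks. Of the genes without a thresholded summit, 28.6% of tRNA, 15.7% of snoRNA and 23.3% of snRNA genes were weak-only. The matching share of protein-coding genes was 24.7%. Of 290 tRNA genes, which RNA polymerase III transcribes, 81 (27.9%) had a weak summit and no thresholded summit within 500 bp, at 61 regions, and 7 had a thresholded one. The regions were spread over the bins, with 9, 10, 16, 17 and 9 in bins 1 to 5. Their support was low, with 4 of 61 in all 3 lists, and 11 of the 61 were also within 500 bp of a protein-coding TSS. Of 269 snoRNA genes, 40 (14.9%, near the 15.5% of protein-coding genes) were weak-only and 14 had a thresholded summit, and many snoRNA genes lie inside introns of host genes. Of 32 snRNA genes, 7 (21.9%) were weak-only and 2 had a thresholded summit, and the 99 rRNA genes had neither.

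Among weak promoter windows, the DRE core, the Ohler motif 1 core and a promoter E-box were most frequent in bin 1. The DRE core was within 100 bp of 5.25% of weak promoter summits in bin 1, 4.68% in bin 2, 3.19% in bin 3, 2.26% in bin 4 and 4.07% in bin 5, against 9.25% of thresholded promoter summits, 6.45% of all protein-coding TSS positions and under 1.1% of windows 1000 bp aside. The bin 5 value rests on 20 of 492 windows, with an interval of 2.65 to 6.20. The Ohler motif 1 core was in 6.04% of weak promoter windows in bin 1 and 1.02% in bin 5, against 10.7% at thresholded promoters and 5.68% at all TSS positions. A promoter E-box (CAGCTG) was in 14.8% of bin 1 and 10.6% of bin 5, with 11.3% and 11.8% in windows 1000 bp aside. At thresholded promoters it was in 15.3%, with 12.4% aside. GAGA repeats (GAGAGAG) were in 4.92% of weak promoter windows (4.33 to 5.59) and 2.63% of thresholded ones (2.20 to 3.13), with 4.69% at all TSS positions. In weak promoter bins 1 to 5 they were in 3.99%, 6.13%, 5.69%, 4.35% and 4.88%, without a steady trend. The windows do not sit alike on the TSS: the median distance was 166 bp at weak and 73 bp at thresholded promoter summits. Near genes without a thresholded promoter peak it was 110 bp in bin 1 and 219 bp in bin 5. Near genes with one it was 167 and 196 bp. The part of this distance in the motif shares was not tested.

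Outside promoters the cores were near their level in the surroundings. There the DRE core was in 0.674% and the motif 1 core in 0.362% of weak windows, with 0.604% for each in windows 1000 bp aside. In bin 1 alone the DRE core was in 12 of 1243 windows (0.965%, 0.553 to 1.68), against 0.483% aside. Over all bins, the letters TATAAA were in 31.4% of weak windows outside promoters against 24.0% aside, and 8 A in a row in 18.3% against 13.4%. Both were also above their surroundings at weak promoters, with TATAAA in 25.5% against 19.9% aside and 8 A in a row in 12.1% against 8.41%, and at thresholded promoters, with 24.0% against 17.2% and 10.5% against 6.16%. GC content was 37.8% in weak windows outside promoters and 40.7% aside, and 41.2% and 44.0% for weak promoter windows. Each motif was searched on both strands, and the BEAF-32 site CGATA lies within the DRE core. A Zelda site (CAGGTAG) was in 1.36% of weak promoter windows and 1.32% aside, a GATA site (AGATAA) in 11.4% and 12.1%, and a Pangolin site (ATCAAAG) in 3.32% and 3.87%. For the Pho core (GCCATT) the values were 11.5% and 12.2%, for CA repeats (CACACACA) 5.91% and 4.22%, and for the BEAF-32 site 30.1% and 22.5%.

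**Figure D5:**
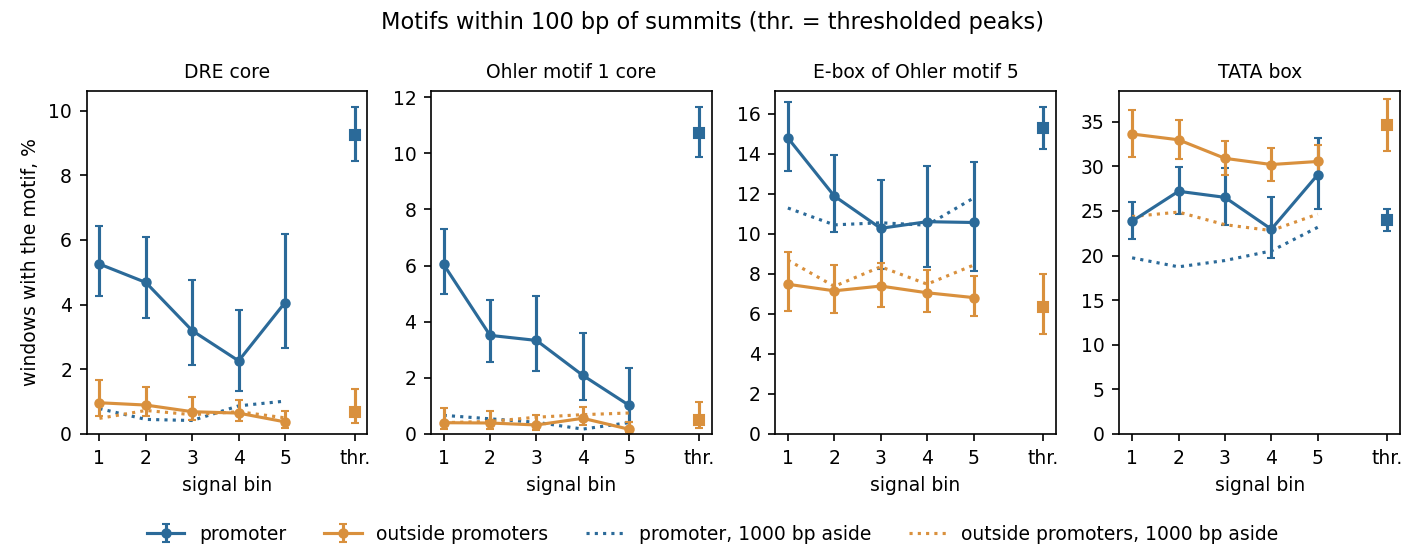
Percent of windows within 100 bp of a summit that hold each of 4 motifs, by signal bin, at promoters and outside them, with thresholded peaks as squares, Wilson 95% intervals as bars and dotted lines for windows 1000 bp aside. In bin 1 the DRE and motif 1 cores stand well above the dotted line at promoters, at 5.25% and 6.04%. The gap is smallest for the DRE core in bin 4, at 2.26% against 0.870% aside. For the motif 1 core it is smallest in bin 5, at 1.02% against 0.407%. The TATA box letters stand above the dotted line in every bin, both at promoters and outside them.

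Weak intronic regions were spread unevenly over genes. They lay in 1980 protein-coding genes, of which 861 had 1, 367 had at least 5 and 107 had at least 10. The 5 genes with the most were kirre with 39, bun and pum with 28 each, fz with 25 and fz2 with 22. These are long genes: kirre, a myoblast fusion receptor, spans 394 kb, so that its 39 regions make 9.89 per 100 kb of gene, beside 10.9 per 100 kb of all intron sequence. The leucine zipper gene bun (91.1 kb) and the Wnt receptor genes fz (94.3 kb) and fz2 (94.4 kb) were denser, with 30.7, 26.5 and 23.3 per 100 kb of gene, and the RNA-binding protein gene pum had 16.3. Of the 28 regions in bun, 4 were in all 3 lists, and bun had no thresholded intronic peak. In fz2, 8 of 22 were in all 3 lists.

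The strongest weak regions outside promoters were close to the threshold and mostly well supported. The top 5 intronic ones lay in pyd, E2f1, CHES-1-like, CG43658 and skd, a Mediator subunit gene, with signals of 128.7 to 128.4, and 4 of them were in all 3 lists. The skd region was 590 bp from the TSS of skd, just outside the promoter window, and replicate 3 did not list it. The top 5 between genes were nearest to CG15629, CG6163, yip3, Gga and dati, with signals of 128.7 to 126.9, all in all 3 lists. The one nearest CG6163 was 13920 bp from its TSS and had ranks 11248, 4832 and 2527 in replicates 1, 2 and 3. Of the top 5 exonic ones, 1 lay in an exon of a protein-coding gene, CG5895 (127.7), and the others lay in exons of non-coding genes nearest to the TSSs of ND-AGGG, CG6118, pnut and IntS8.

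Chromosome 4, the small and largely heterochromatic arm, carried the densest set of weak regions. It had 226, or 168 per Mb, against 98.9 to 117 per Mb on the other arms, while thresholded peaks numbered 44.5 per Mb there and 37.7 to 44.2 on the others. Of its weak summits, 13.7% lay in annotated transposable elements, against 0.400% to 1.64% on the other arms. The share of each arm's bases in such elements is not given here, so these values cannot be set against a background. Weak summits of chromosome 4 were at promoters in 23.0% and in all 3 lists in 13.7%, against 25.5% to 37.1% and 18.9% to 24.5% elsewhere. The X chromosome had the highest shares of the arms in both, with 37.1% at promoters and 24.5% in all 3 lists.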

How the data were processed

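The deposited files are region lists in narrowPeak form, per the file listing deposited with the series, for each of 3 replicates, for the pool and for the thresholded peaks. Per the same listing, the authors made the lists from alignments of the libraries and 1 control alignment, and IDR, run on the replicate and pooled lists, gave the thresholded list. The aligner, region caller and IDR settings were not given in the sources used here. Both the deposited signal (its scale not stated) and the deposited −log10 q-value columns were used as the authors gave them, to describe and rank regions within a list. Depth is unknown. Coordinates are dm6, counted from 1.

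The rule, signal bins and classes were computed with pandas 2.3.3 and numpy 2.4.6 on Ensembl release 115 genes. A summit was assigned to a promoter at 500 bp or less from a TSS of a protein-coding gene, otherwise called exonic, intronic or intergenic, in that order. The shared functions were tested on simulated regions. Named genes are the 20 strongest weak-only genes, up to 3 per list, the hosts or neighbours of the 5 strongest regions of each other class, the 5 genes with most intronic regions, and those at the threshold and at the end, of which 1 peak above the threshold is not reported here. Wdr33, Tmf, CG14435, RpS5b, mRpL39, Hsc70-3 and the COX genes were named after their values were seen. Of the names in the lists, 2 of 28 Notch and E(spl), 2 of 31 segmentation, 1 of 30 muscle, 1 of 30 Polycomb and Trithorax and 2 of 20 insulator names had no match. The region rule, the lists and the motifs were chosen with earlier results of these data known. Alternatives were other promoter windows, TSS choices, class orders, overlap rules, list lengths, the dm3 files and leaving out each replicate.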

Additional observations from a re-analysis of the deposited data

How the results depend on the processing

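The number of weak regions was 12811 in the dm3 files and 12929 without regions touching a thresholded peak. The promoter share of weak regions was 22.2% with a window of 250 bp, 41.7% with 1000 bp, 25.0% with 1 TSS per gene, 24.3% without touching regions, 43.7% in regions of all 3 lists, and 8.02% when exons and introns were assigned before promoters. Under the same last 3 choices the intron share was 44.1%, 35.9% and 47.8%, and the exon share was 11.2%, 5.06% and 25.8%. The intergenic share was 20.4% and 15.3% under the first 2 of these. The drop in promoter share between bins 1 and 5 was 36.4 points with 250 bp, 37.7 with 1000 bp, 36.3 with 1 TSS per gene and 31.5 without touching regions. It reversed to -11.0 points among regions in all 3 lists, which leave only 52 regions in bin 5. The share in all 3 lists was 31.3% with any shared base, 15.0% with lists of equal length, 17.8% without touching regions, 23.0% in dm3, and 25.9% to 43.9% when each replicate in turn was left out. The gained genes numbered 627 from regions in all 3 lists and 718 to 1324 when each replicate was left out, 718 without replicate 1, 831 without replicate 2 and 1324 without replicate 3. The last 3 counts require the region in both remaining lists, while the count of 2169 requires no list, so that they change the support asked for as well as the replicates. The mean difference in support between promoter and other regions and the mean difference in promoter share below and above rank 5558 kept their sign in every alternative listed for them, but 3 lists cannot pass a threshold of 0.05. For the first of these, the mean without touching regions was 9.65 points (exact sign-flip p = 0.5) with replicate 3 at -1.55, and the mean over all weak regions was -9.52 and -2.02 points within bins 1 and 2. Where the values moved, the cause was not tested beyond what the choice itself sets. The unknown depth limits what a missing region in replicate 3 means.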
